A study of Mus musculus and Homo sapiens with 28 samples.

Results

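The cytotoxic effector and natural killer (NK) cell genes described here are 10 genes, Gzma, Gzmb, Prf1, Nkg7, Klrb1c, Klrk1, Klrd1, Ncr1, Eomes and Ifng, and they make up 10 of the 46078 rows of the mouse expression table. Each row was found by matching its Ensembl identifier to a symbol in GENCODE vM21 (build GRCm38), and all 10 genes were present with a value other than 0. The table holds RNA sequencing of 24 libraries from tumours of Renca, a mouse renal carcinoma line, grown under the skin of mice. Tumours labelled SETD2 KD were treated with VE822, an inhibitor of the DNA damage kinase ATR (n = 5), tumours labelled WT were treated with VE822 (n = 6), and the untreated tumours were labelled SETD2 KD (n = 6) or WT (n = 7). VE822 was given by gavage at 60 mg/kg on 5 days per week once tumours could be felt. The tissue label reads kidney, whereas the protocol describes injection into the back. The sources used here do not give the knockdown construct, the number of clones, the host's strain, sex or age, or the duration of treatment. No label says that the libraries come from separate animals, so the p-values speak of spread among libraries, some of which may be technical. A further 4 libraries of the human line 786-O belong to the series and were not used here.

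NK cells and cytotoxic T cells kill by releasing granules into the cleft they form with a target cell. Perforin opens the target membrane, granzymes enter and cleave proteins that lead to cell death, and interferon-gamma is secreted to act on neighbouring cells. Activating and inhibitory receptors on the NK cell surface weigh ligands on the target, and T-box and RUNX transcription factors maintain the effector program in both lymphocyte types. The granule genes, Nkg7, Klrk1, Klrd1, Eomes and Ifng are used by activated CD8 T cells as well as by NK cells, whereas Ncr1 and Klrb1c are more closely tied to NK cells and related innate lymphocytes.

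Promoter sequences are shown for 5 of the genes because the values below rest on genes that were higher together under VE822, and because they cover the granule genes and the most NK-restricted receptor. RefSeq promoters of the GRCm38.p6 build, from 250 bases before the annotated start to 50 bases after it, matched 9 of the 10 genes; Klrd1 is named only. Letters run 5′ to 3′ in the direction of transcription. Capitals mark each match on either strand to the RUNX core TGTGGT (reverse complement ACCACA), the T-box core GGTGTGA (reverse complement TCACACC) or the STAT motif TTCNNNGAA, where N is any base.
Gzma (chr13:113100932-113101231, minus strand): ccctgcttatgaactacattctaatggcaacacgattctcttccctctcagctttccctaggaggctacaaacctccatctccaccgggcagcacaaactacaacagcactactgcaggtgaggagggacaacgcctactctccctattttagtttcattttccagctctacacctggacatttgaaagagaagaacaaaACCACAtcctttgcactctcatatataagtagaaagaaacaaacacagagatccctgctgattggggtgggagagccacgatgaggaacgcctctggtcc
Gzmb (chr14:56262285-56262584, minus strand): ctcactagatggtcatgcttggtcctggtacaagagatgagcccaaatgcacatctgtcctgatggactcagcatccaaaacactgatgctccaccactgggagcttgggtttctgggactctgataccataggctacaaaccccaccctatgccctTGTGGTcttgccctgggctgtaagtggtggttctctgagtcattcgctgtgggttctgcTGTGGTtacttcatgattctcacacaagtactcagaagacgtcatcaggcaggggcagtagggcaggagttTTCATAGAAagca
Prf1 (chr10:61297586-61297885, plus strand): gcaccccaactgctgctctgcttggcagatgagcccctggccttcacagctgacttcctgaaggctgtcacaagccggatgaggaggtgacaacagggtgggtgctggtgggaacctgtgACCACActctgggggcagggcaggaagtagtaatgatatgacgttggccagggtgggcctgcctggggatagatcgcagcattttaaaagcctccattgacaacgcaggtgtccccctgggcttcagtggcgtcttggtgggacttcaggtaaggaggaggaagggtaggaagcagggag
Nkg7 (chr7:43436888-43437187, plus strand): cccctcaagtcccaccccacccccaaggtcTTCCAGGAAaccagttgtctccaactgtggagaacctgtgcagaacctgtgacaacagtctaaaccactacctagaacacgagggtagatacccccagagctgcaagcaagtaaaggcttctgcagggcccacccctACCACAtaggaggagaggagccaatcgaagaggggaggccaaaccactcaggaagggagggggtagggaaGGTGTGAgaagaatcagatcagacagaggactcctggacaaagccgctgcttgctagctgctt
Ncr1 (chr7:4337465-4337764, plus strand): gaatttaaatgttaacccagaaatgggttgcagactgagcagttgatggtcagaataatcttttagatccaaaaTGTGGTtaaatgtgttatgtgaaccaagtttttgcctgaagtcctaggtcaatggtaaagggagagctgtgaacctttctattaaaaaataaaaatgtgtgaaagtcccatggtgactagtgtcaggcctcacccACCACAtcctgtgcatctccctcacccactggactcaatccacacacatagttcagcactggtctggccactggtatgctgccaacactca

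The RUNX core was present in 7 of these 9 promoters (Gzma, Gzmb, Prf1, Nkg7, Klrb1c, Klrk1 and Ncr1), and 16.8% of all 32851 promoters of the same length hold it. The STAT motif was in 3 (Gzmb, Nkg7 and Ifng), against 8.3% of all promoters, and the T-box core was in 1 (Nkg7), against 3.98%. Gzmb carried 2 copies of the RUNX core, which begin at positions -93 and -34 relative to its start, and Ncr1, shown at the first of its annotated starts, carried 2 on opposite strands. No match of the 3 motifs overlapped another. A match is a description of these letters, not evidence of a bound site, and Eomes held none of the 3 in this window.

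Expression is given as regularised log (rlog) values on the log2 scale, as deposited. The transform pulls low-count genes toward their mean over all libraries, so differences of genes as low as these are understated, and the read depth behind each value is unknown. The median rlog of the tested genes was 9.13 to 9.21 per library. The genes above an rlog of 5 numbered 13063 to 13167 in SETD2 KD VE822 and 12906 to 12983 in SETD2 KD untreated libraries. They numbered 13047 to 13381 in WT VE822 and 12948 to 13035 in WT untreated libraries. Every VE822 library was thus above every untreated library of its own label, and the cause was not tested. Setd2, the targeted gene, had a mean rlog of 9.72 ± 0.21 in the libraries labelled SETD2 KD VE822, 10.03 ± 0.29 in WT VE822, 10.81 ± 0.07 in SETD2 KD untreated and 10.83 ± 0.07 in WT untreated (SD). Among untreated libraries Setd2 differed by -0.02 ± 0.09 between the genotype labels (SE, limma adjusted p = 1.00), so its level does not follow the label there, and the groups are called by their labels throughout. Skeletal muscle transcripts were high in 4 libraries (WT VE822 replicates 1, 2 and 4 and WT untreated replicate 4), with a mean rlog over the muscle list of 6.39 to 9.53. Counts and calls that moved by over 1.5 times or were lost without them are given with that value, and that fit has fewer libraries.

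Across the 10 genes, each VE822 group was higher on average than the untreated group of the same label, while the untreated groups lay close together. The mean rlog over the 10 genes was 4.06 ± 0.23 in SETD2 KD VE822 libraries, 3.81 ± 0.38 in WT VE822, 3.36 ± 0.05 in SETD2 KD untreated and 3.31 ± 0.11 in WT untreated (SD). When all 29172 rows that vary were tested together with limma, 9 of the 10 genes passed an adjusted p of 0.05 as higher in SETD2 KD VE822 than in SETD2 KD untreated libraries, where 5.78% of all rows did. In WT VE822 against WT untreated libraries 6 of the 10 passed as higher, where 9.83% of all rows did. The tests below come from the narrower fit of the 15916 rows with a mean rlog of at least 3, adjusted over all of them by the Benjamini-Hochberg method. It holds 8 of the 10 genes: Eomes and Ifng, at mean rlogs of 2.85 and 2.23, fall below that minimum and are given from the fit of all varying rows, and Ncr1, at 3.08, passed only because of the VE822 libraries. Among those 8 genes, Ncr1 included, 8 passed in the SETD2 KD comparison (10.6% of tested rows passed as higher) and 7 in the WT comparison (17.2%), which is a description only, and Ncr1 itself is tested below in the fit of all varying rows. In bulk tumours more cells of a type and more RNA per cell cannot be told apart.

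**Figure D1:**
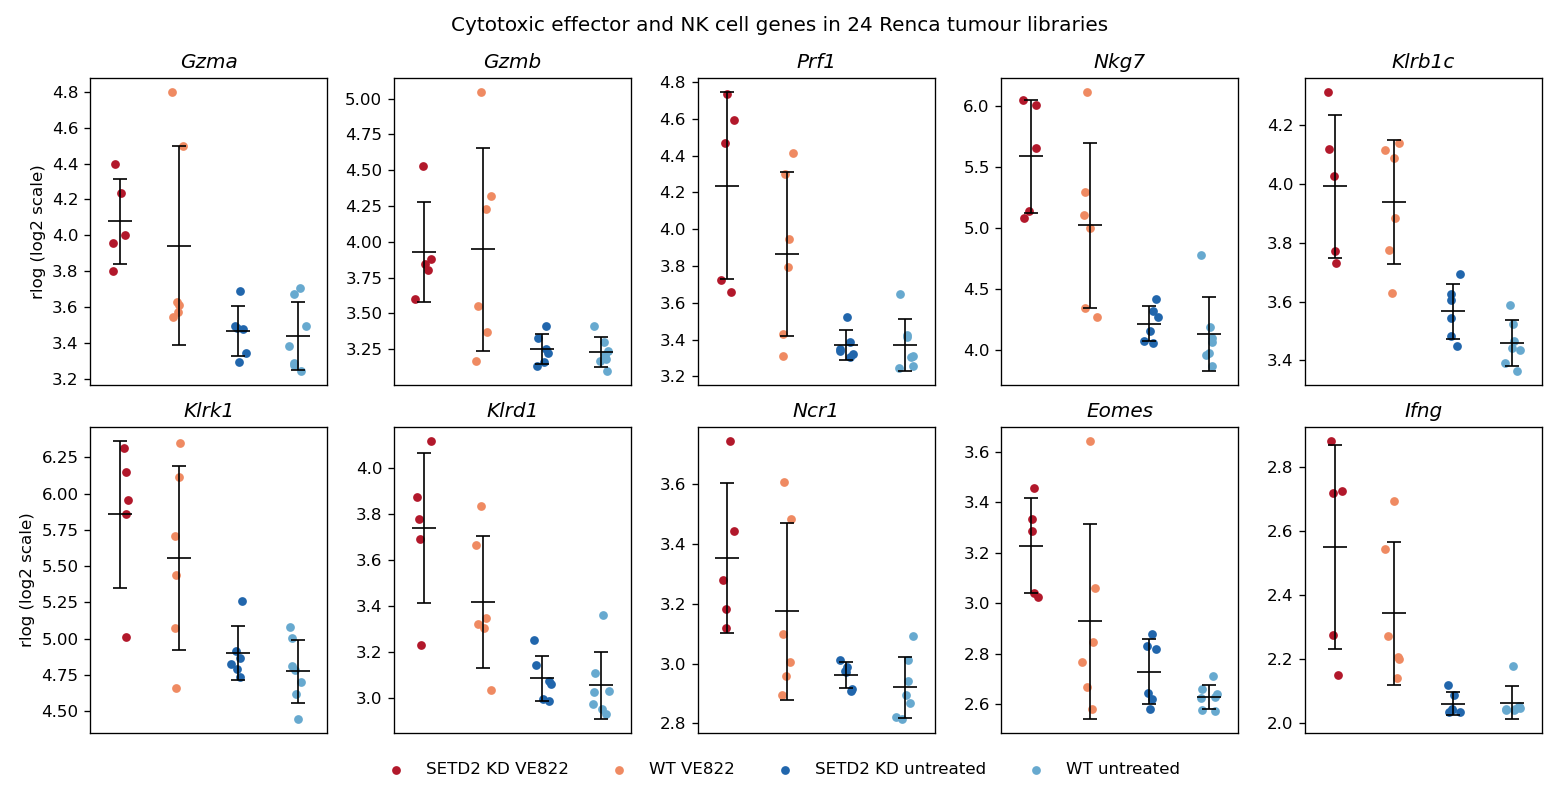
The rlog value (y axis, log2 scale, a separate range per panel) of each gene in each library, with groups left to right as SETD2 KD VE822, WT VE822, SETD2 KD untreated and WT untreated. Points are libraries, the long dash is the group mean and the bars are 1 SD. VE822 libraries are higher and more spread than untreated ones, as for Nkg7, which spans 4.27 to 6.11 in WT VE822 and 3.87 to 4.78 in WT untreated libraries.

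Among the effectors, Nkg7 (ENSMUSG00000004612, chr7:43437073-43438249, plus strand), which encodes a membrane protein of cytotoxic granules needed for their release, had the largest differences of the 10 genes in both comparisons. Its rlog was 6.0, 5.66, 6.05, 5.14 and 5.08 in the 5 SETD2 KD VE822 libraries, against 4.06 to 4.42 (median 4.21) in SETD2 KD untreated libraries. In WT VE822 libraries it was 4.27 to 6.11 (median 5.05), against 3.87 to 4.78 (median 4.06) in WT untreated libraries. All SETD2 KD VE822 libraries stood above every SETD2 KD untreated library, whereas WT VE822 replicates 1 and 3 stayed inside the WT untreated range, whose top was a single library, replicate 1. Nkg7 rose by 1.37 ± 0.25 in the SETD2 KD comparison (adjusted p = 0.000314) and by 0.89 ± 0.23 in the WT comparison (adjusted p = 0.00394; log2 difference ± SE, limma).

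Prf1 (ENSMUSG00000037202, chr10:61297833-61304680, plus strand), which encodes perforin, had rlogs of 4.59, 4.47, 4.74, 3.72 and 3.66 in SETD2 KD VE822 libraries, against 3.31 to 3.52 (median 3.35) in SETD2 KD untreated libraries. Its WT VE822 values ran from 3.31 to 4.41 (median 3.87), against 3.25 to 3.65 (median 3.31) in WT untreated libraries. Replicates 1 to 3 of SETD2 KD VE822 were well above replicates 4 and 5, and all 5 were above the untreated group. WT VE822 replicates 1 and 3 again overlapped the untreated range. The rise was 0.86 ± 0.19 with the SETD2 KD label (adjusted p = 0.00173) and 0.49 ± 0.17 with the WT label (adjusted p = 0.0286), and the WT call was lost when all varying rows were tested (adjusted p = 0.0545). Prf1 lies on chromosome 10, where the median difference of 477 genes was -0.19 in the SETD2 KD comparison and -0.26 in the WT comparison. Those genes have a mean rlog of at least 8, far above the level of Prf1. With chromosome medians removed the difference of Prf1 was 1.05 with the SETD2 KD label and 0.75 with the WT label.

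Gzmb (ENSMUSG00000015437, chr14:56258838-56262260, minus strand), a serine protease that activates caspases in the target cell, had the widest spread of the 10 genes among WT VE822 libraries (SD 0.71). It had rlogs of 3.88, 3.84, 4.53, 3.80 and 3.6 in SETD2 KD VE822 libraries, against 3.13 to 3.41 (median 3.24) in SETD2 KD untreated libraries. WT VE822 libraries ran from 3.17 to 5.04 (median 3.89), against 3.10 to 3.41 (median 3.21) in WT untreated libraries. The highest value of all 24 libraries, 5.04, was WT VE822 replicate 2, while replicates 1 and 3 of that group, at 3.37 and 3.17, were within the untreated range. Gzmb rose by 0.68 ± 0.22 in the SETD2 KD comparison (limma adjusted p = 0.0298) and by 0.72 ± 0.20 in the WT comparison (adjusted p = 0.00867). The SETD2 KD call did not hold over all varying rows (adjusted p = 0.0583) or without SETD2 KD VE822 replicate 3 (difference 0.53, adjusted p = 0.102). The WT difference was 0.44 (adjusted p = 0.0980) without the 4 libraries high in muscle transcripts.

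Gzma (ENSMUSG00000023132, chr13:113093825-113100981, minus strand), the tryptase-like granzyme of NK cells and CD8 T cells, had rlogs of 3.80, 4.40, 4.0, 4.23 and 3.96 in SETD2 KD VE822 libraries, against 3.29 to 3.69 (median 3.48) in SETD2 KD untreated libraries. In WT VE822 libraries it was 3.54 to 4.80 (median 3.62), against 3.25 to 3.70 (median 3.38) in WT untreated libraries. The SETD2 KD groups did not overlap. With the WT label only replicates 4 and 5 of the VE822 group, at 4.50 and 4.80, were above the untreated range, and the other 4 lay between 3.54 and 3.63. Gzma rose by 0.61 ± 0.18 with the SETD2 KD label (limma adjusted p = 0.0173) and by 0.50 ± 0.17 with the WT label (adjusted p = 0.0225). The WT call was lost without replicate 4 (adjusted p = 0.0714) or replicate 5 (adjusted p = 0.0692) of WT VE822, and the SETD2 KD call without replicate 2 of SETD2 KD VE822 (adjusted p = 0.0574). Granzymes are a family of similar genes, and the sources used here do not say how reads shared between them were assigned.

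Of the receptors, Klrb1c (ENSMUSG00000030325, chr6:128778485-128789215, minus strand), a lectin-like activating receptor of NK cells, was the only gene of the 10 whose WT groups did not overlap (3.88% of all varying rows were separated in that direction). It had rlogs of 3.73, 4.12, 3.77, 4.31 and 4.03 in SETD2 KD VE822 libraries, against 3.45 to 3.70 (median 3.58) in SETD2 KD untreated libraries. WT VE822 values ran from 3.63 to 4.14 (median 3.99), against 3.36 to 3.59 (median 3.44) in WT untreated libraries. Every VE822 library was above every untreated library of its own label. The rise was 0.43 ± 0.10 with the SETD2 KD label (limma adjusted p = 0.00283) and 0.48 ± 0.09 with the WT label (adjusted p = 0.000244). A gene on the same strand, Gm44511, overlaps Klrb1c in the annotation and close relatives lie beside it, so its reads are uncertain in that respect.

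Klrk1 (ENSMUSG00000030149, chr6:129610323-129623864, minus strand), which encodes the activating receptor NKG2D of NK and CD8 T cells, had rlogs of 5.96, 6.15, 6.31, 5.86 and 5.01 in SETD2 KD VE822 libraries, against 4.74 to 5.26 (median 4.85) in SETD2 KD untreated libraries. In WT VE822 libraries it was 4.66 to 6.35 (median 5.57), against 4.45 to 5.08 (median 4.78) in WT untreated libraries. The groups overlapped with both labels: SETD2 KD VE822 replicate 5 was below SETD2 KD untreated replicate 6, and WT VE822 replicates 1 and 3 were inside the untreated range. Klrk1 rose by 0.96 ± 0.24 (limma adjusted p = 0.00487) with the SETD2 KD label and by 0.78 ± 0.22 (adjusted p = 0.00748) with the WT label. Without the 4 libraries high in muscle transcripts the WT difference was 0.68 and did not pass (adjusted p = 0.0858).

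Klrd1 (ENSMUSG00000030165, chr6:129591782-129598775, plus strand) encodes CD94, the chain that pairs with NKG2 receptors to read a non-classical MHC class I molecule. It had rlogs of 4.12, 3.78, 3.87, 3.69 and 3.23 in SETD2 KD VE822 libraries, against 2.98 to 3.25 (median 3.07) in SETD2 KD untreated libraries. WT VE822 libraries ran from 3.03 to 3.84 (median 3.33), against 2.93 to 3.36 (median 3.02) in WT untreated libraries. Replicate 5 of SETD2 KD VE822 fell just inside the untreated range, and with the WT label only replicates 4 and 5 of the VE822 group stood above it. The rise was 0.65 ± 0.13 with the SETD2 KD label (limma adjusted p = 0.000843) and 0.36 ± 0.12 with the WT label (adjusted p = 0.0206). Klrd1, Klrk1 and Klrb1c lie on chromosome 6. The median difference of its 471 genes with a mean rlog of at least 8 was 0.04 in the SETD2 KD comparison and 0.13 in the WT comparison. With chromosome medians removed the WT difference of Klrd1 was 0.23 (adjusted p = 0.154), which did not pass.

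Ncr1 (ENSMUSG00000062524, chr7:4337724-4345164, plus strand) encodes NKp46, an activating receptor almost confined to NK cells and innate lymphoid cells. Its rlogs were 3.18, 3.44, 3.28, 3.75 and 3.12 in SETD2 KD VE822 libraries, against 2.91 to 3.01 (median 2.97) in SETD2 KD untreated libraries. WT VE822 values were 2.90 to 3.61 (median 3.05), against 2.81 to 3.09 (median 2.89) in WT untreated libraries. The SETD2 KD groups did not overlap, and with the WT label replicates 4 and 5 were clearly above the untreated libraries, replicate 3 barely so, and the other 3 inside their range. In the fit of all varying rows Ncr1 rose by 0.39 ± 0.12 with the SETD2 KD label (limma adjusted p = 0.0290), and the WT difference was 0.25 ± 0.11 (adjusted p = 0.107), which did not pass.

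The transcription factor Eomes (ENSMUSG00000032446, chr9:118478212-118486132, plus strand), a T-box protein needed for NK cell maturation, had rlogs of 3.02, 3.46, 3.29, 3.33 and 3.04 in SETD2 KD VE822 libraries, against 2.58 to 2.88 (median 2.73) in SETD2 KD untreated libraries. It had 2.58 to 3.64 (median 2.81) in WT VE822 libraries, against 2.57 to 2.71 (median 2.63) in WT untreated libraries. The SETD2 KD groups were separate, and in WT VE822 a single library, replicate 5, reached 3.64. In the fit of all varying rows Eomes rose by 0.50 ± 0.13 with the SETD2 KD label (limma adjusted p = 0.0135), and the WT difference was 0.30 ± 0.12 (adjusted p = 0.0907). Without that replicate the WT difference of Eomes was 0.16 (adjusted p = 0.227). Gm33460, an antisense gene, overlaps Eomes, and the sources used here do not say whether counting used strand.

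Ifng (ENSMUSG00000055170, chr10:118441046-118445892, plus strand), which encodes interferon-gamma, was the lowest of the 10 rows, with rlogs of 2.73, 2.72, 2.88, 2.27 and 2.15 in SETD2 KD VE822 libraries, against 2.03 to 2.12 (median 2.04) in SETD2 KD untreated libraries. WT VE822 libraries had 2.14 to 2.69 (median 2.24), against 2.04 to 2.18 (median 2.04) in WT untreated libraries. The SETD2 KD groups did not overlap, and 5 of the 6 WT VE822 libraries were above all WT untreated libraries. Ifng rose by 0.49 ± 0.11 with the SETD2 KD label (limma adjusted p = 0.00405, all varying rows), and the WT difference of 0.28 ± 0.10 just missed (adjusted p = 0.0530). Ifng lies on chromosome 10, and with chromosome medians removed the WT difference was 0.54 (adjusted p = 0.000603). Those medians come from genes with a mean rlog of at least 8, far above the level of Ifng. The annotation places Gm49751 over it.

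Taking separation of libraries as a description, 8 of the 10 genes had no overlap between SETD2 KD VE822 and SETD2 KD untreated libraries, where 3.37% of all varying rows were separated in that direction. The exact two-sided permutation test gave p = 0.00216, the smallest it can give for 5 against 6 libraries, for those 8 genes and p = 0.00433 for Klrk1 and Klrd1. For the 8 genes this p restates the lack of overlap and adds no support to it. In the WT comparison the permutation test gave p values from 0.000583 for Klrb1c to 0.0390 for Ncr1. The value for Klrb1c is the smallest possible for 6 against 7 libraries, so it too only restates the lack of overlap. These p-values are unadjusted, and the share of all rows in this test is not given.

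**Figure D2:**
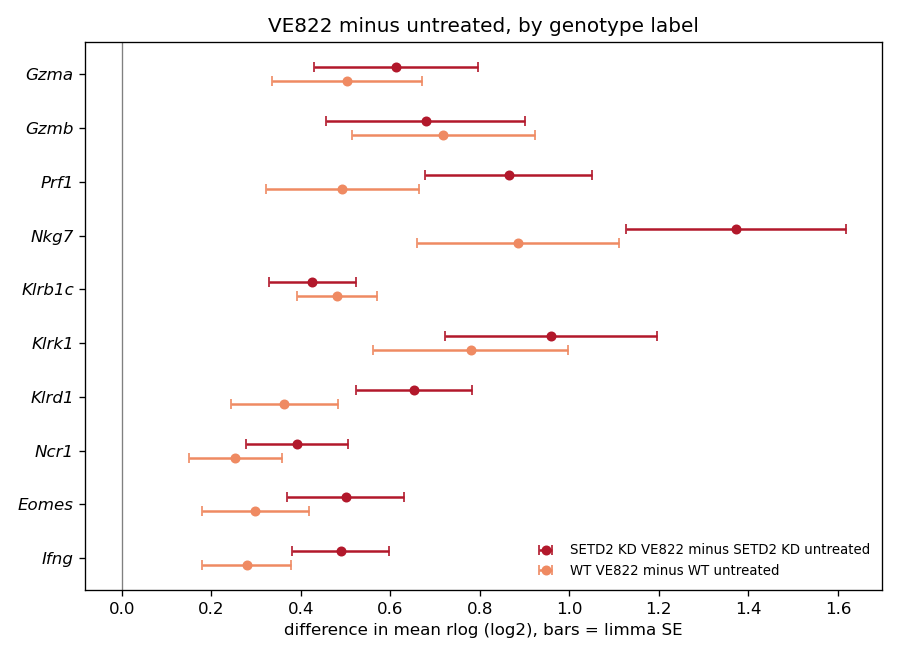
The difference in mean rlog (x axis, log2) between VE822 and untreated libraries for each gene, with bars of 1 SE from limma, for the SETD2 KD label (dark red) and the WT label (orange). All 20 points lie right of 0, from 0.25 for Ncr1 with the WT label to 1.37 for Nkg7 with the SETD2 KD label.

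The libraries within a VE822 group were far from alike. In SETD2 KD VE822, replicates 1 to 4 had all 10 genes above every SETD2 KD untreated library, and replicate 5 had 8 (7 above every WT untreated library). In WT VE822, replicates 4 and 5 had all 10 above every WT untreated library, replicates 2 and 6 had 7, and replicates 1 and 3 had 2. The share of all rows in the same position was not counted, so these counts are a description only. The mean over the 10 genes in WT VE822 replicates 1 and 3 was 3.48 and 3.34, next to 3.18 to 3.54 in the WT untreated libraries. Without WT VE822 replicate 5 the number of tested genes that passed in the WT comparison was 4 in place of 7. Of all 15916 tested rows 2552 then passed as higher, against 2737 with all libraries. Leaving out the 4 libraries high in muscle transcripts leaves 3 WT VE822 and 6 WT untreated libraries. The number of the 10 genes that passed was then 2: Nkg7 (1.00, limma adjusted p = 0.0187) and Klrb1c (0.38, adjusted p = 0.0192). Of all 15916 tested rows 1637 passed as higher in that fit. The differences of the genes that no longer passed were 0.54 for Gzma (against 0.50 with all libraries), 0.44 for Gzmb (0.72), 0.47 for Prf1 (0.49), 0.68 for Klrk1 (0.78) and 0.35 for Klrd1 (0.36), so that the median over the 8 genes was 0.45, against 0.50. The SETD2 KD count was 8 in the fit without the 4 libraries too, where 1815 of all 15916 tested rows passed as higher.

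**Figure D3:**
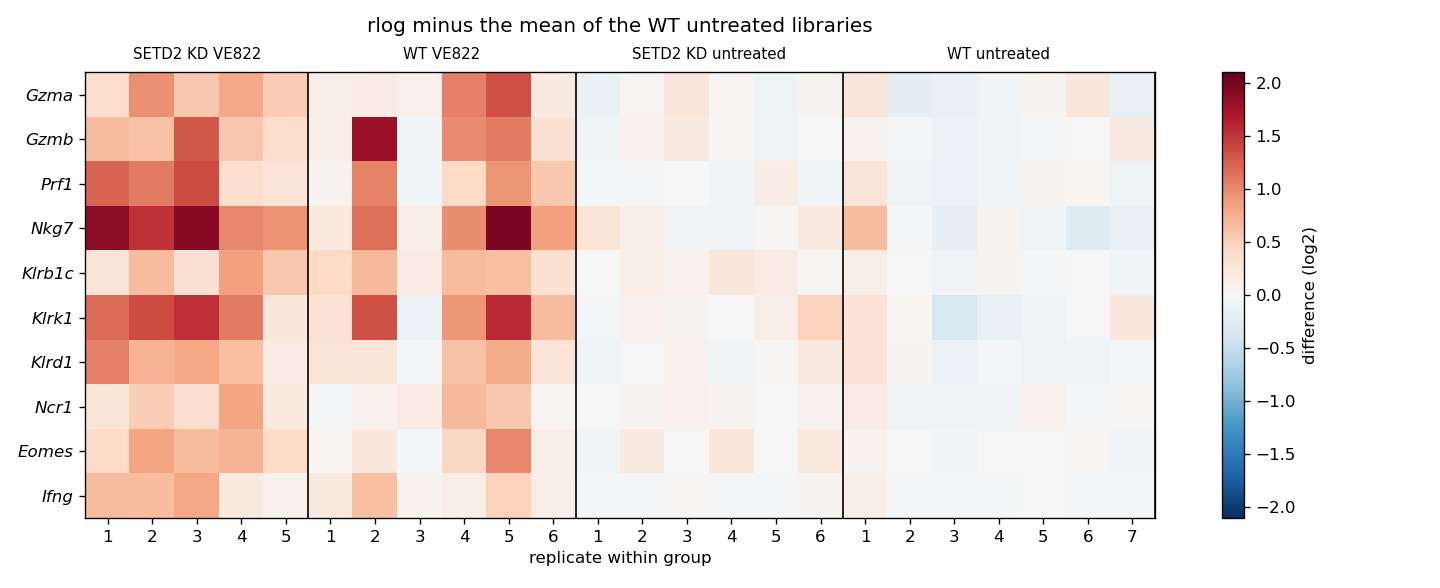
The rlog of each gene (rows) in each library (columns, in replicate order within the 4 groups) minus the mean of the WT untreated libraries (colour, log2). WT VE822 replicates 1 and 3 are nearly as pale as the untreated libraries, and Gzmb in WT VE822 replicate 2 and Nkg7 in replicate 5 are among the deepest cells.

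The genes also peaked in different libraries. In WT VE822, Gzmb was highest in replicate 2, where Gzma (3.61) and Ncr1 were within the WT untreated range, whereas Gzma, Eomes, Klrd1, Nkg7 and Klrk1 were highest in replicate 5 and Ncr1 in replicate 4. In SETD2 KD VE822, Gzmb, Prf1, Nkg7, Klrk1 and Ifng were highest in replicate 3, Ncr1 and Klrb1c in replicate 4, and Gzma and Eomes in replicate 2. Adipocyte transcripts also differed among these libraries. The mean rlog over the adipocyte list was 7.66 and 7.17 in SETD2 KD VE822 replicates 2 and 4, and 5.45 in replicate 3. In WT VE822 it was 7.44 in replicate 4 and 6.94 in replicate 5, but also 7.15 in replicate 3, where Gzma was lowest. The part of adipose tissue in these peaks was not tested. With group means removed, Pearson r between pairs over the 24 libraries ran from -0.04 to 0.90 (median 0.56, 45 pairs), as a description of libraries that share their tumour composition and scaling. Prf1 went with Ifng (0.90), Nkg7 (0.85), Klrk1 (0.82) and Gzmb (0.73). Gzma went with Eomes (0.86) and Ncr1 (0.83) and much less with Gzmb (0.32), Prf1 (0.26) or Ifng (0.14). Klrb1c and Ncr1 had r = 0.59 with each other and -0.04 and -0.02 with Ifng.

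**Figure D4:**
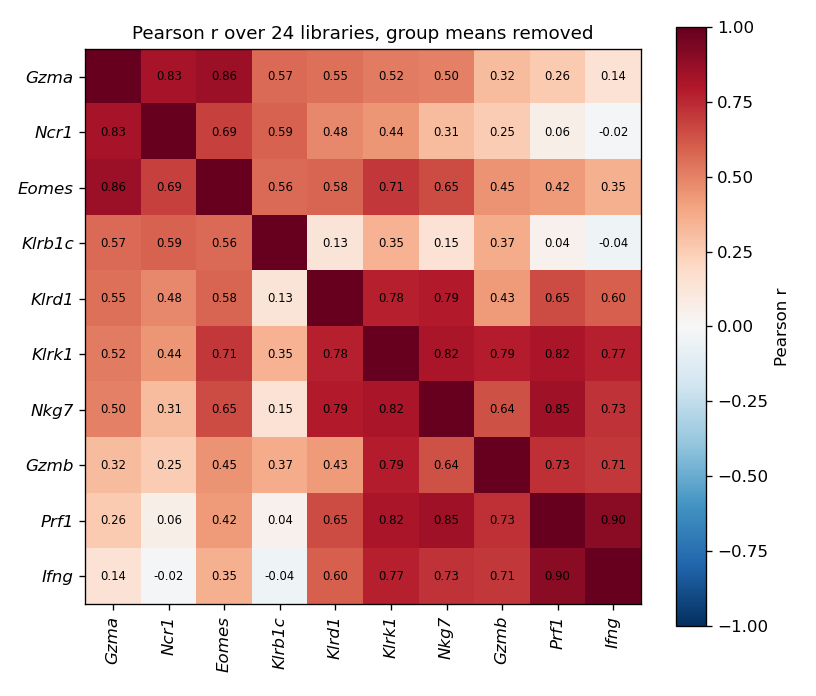
Pearson r (colour and number) between the rlog values of each pair of the 10 genes over 24 libraries after each group's mean was subtracted. The order of genes was set by hand, not by clustering. Gzma, Ncr1 and Eomes form a warm block at the upper left (0.69 to 0.86), and Nkg7, Gzmb, Prf1 and Ifng another at the lower right (0.64 to 0.90). Values are near 0 between Ncr1 and Prf1 (0.06) or Ifng (-0.02). The blocks are not separate: Eomes has 0.71 with Klrk1 and 0.65 with Nkg7. Klrk1 has 0.77 to 0.82 with the genes of the lower right block.

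Between genotype labels the 10 genes were not told apart. In SETD2 KD untreated against WT untreated libraries the differences ran from -0.00 for Ifng to 0.12 for Klrk1. In the fit of all varying rows 0 of the 10 passed in limma, where 0% of all rows did. At an unadjusted limma p under 0.05 the count was also 0 (3.11% of all rows), while the exact permutation test, unadjusted, gave 1 gene, Klrb1c (0.11, p = 0.0443). The share of all rows under 0.05 in the permutation test is not given here, so its counts are not read as a result. Under VE822, SETD2 KD minus WT differences ran from -0.02 for Gzmb to 0.57 for Nkg7 and 9 of 10 were positive. Of the 10 genes 0 passed (0.0137% of all varying rows did), and at an unadjusted limma p under 0.05 the count was 3, Nkg7, Klrd1 and Eomes, where 10.7% of all rows had such a p. The exact permutation test gave 0. For Nkg7 the interval of plus or minus 2 SE was 0.08 to 1.06, and for Gzmb it was -0.46 to 0.43. The difference between the VE822 effects of the labels, tested as an interaction, passed for 0 of the 10 (0% of all varying rows) and for 0 at an unadjusted limma p under 0.05 (7% of all rows). For Nkg7, which had the largest interaction, it was 0.49 ± 0.33, with an interval of -0.18 to 1.15. That interval holds 0 and also values above the whole WT difference of Nkg7, 0.89, so the labels are not shown to respond alike.

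Per kilobase of exon, the order of levels was much the same in every group. In SETD2 KD VE822 libraries the length-adjusted mean rlog was 5.72 for Nkg7, 4.07 for Gzma and 3.41 for Gzmb, followed by 3.38 for Klrd1, 3.01 for Klrk1, 2.87 for Prf1, 2.73 for Ncr1, 2.43 for Klrb1c, 2.18 for Ifng and 1.17 for Eomes. Nkg7 stood above Gzma, and Ifng above Eomes, by more than the spread of the libraries, whereas the libraries of neighbours from Gzma to Ifng overlapped. In WT VE822 libraries Nkg7, Gzma, Gzmb and Klrd1 were also the first 4, at 5.15, 3.93, 3.43 and 3.06. In SETD2 KD untreated and WT untreated libraries Nkg7 led at 4.34 (SETD2 KD) and 4.26 (WT), and Eomes was last in all 4 groups. Because low genes are pulled toward their mean, this order is rough at its low end.

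The genes whose values followed the 10 most closely included chains of the T cell receptor complex. Over 24 libraries the mean z-score of the 10 genes had r = 0.97 with Trbc2, Cd3e and AW112010 and 0.96 with Cd3d and Serpina3g. These correlations describe libraries that share tumour composition and scaling. With group means removed the leading genes were Ifi47 (0.95), Trbc2 (0.94) and Cd3d (0.93). For single genes with group means kept, Nkg7 was nearest to Cd3e and Cd8a (0.98 each), Klrk1 to Trbc2 (0.97) and Klrd1 to Cxcr6 (0.95). Gzmb was nearest to Tbx21 (0.90), Ifng to Ubd (0.97) and Prf1 to Il18bp (0.96). Klrb1c was nearest to its relative Klrb1b (0.91), Ncr1 to Ifi214 (0.92), Gzma to Epsti1 (0.90) and Eomes to Mpeg1 (0.93). Several of these changed with group means removed. The nearest were then Ptprm for Klrb1c (0.88), Sncaip for Ncr1 (0.89), BC147527 for Gzma (0.87) and Mpeg1 for Eomes (0.86). They were Lat for Gzmb (0.82), Tapbpl for Prf1 (0.93) and Nrgn for Klrd1 (0.88). Cd3e stayed nearest to Nkg7 (0.95), Trbc2 to Klrk1 (0.94) and Ubd to Ifng (0.94).

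Markers of T cells were higher alongside these genes. Of 17 T cell genes, 15 rose and 0 fell with the SETD2 KD label and 15 rose and 0 fell with the WT label, where 10.6% and 17.2% of all tested rows were higher with the SETD2 KD and WT labels, with median differences of 0.99 (SETD2 KD) and 0.84 (WT), against 0.01 with either label over all genes tested. Without the libraries high in muscle transcripts 11 rose and 0 fell with the WT label, with a median of 0.76. Cd28, a co-stimulatory receptor of T cells, rose by 2.40 ± 0.31 with the SETD2 KD label (limma adjusted p = 8.74e-06) and by 1.98 ± 0.28 with the WT label (adjusted p = 1.37e-05). Cd8a, the chain that marks cytotoxic T cells, rose by 1.76 ± 0.32 with the SETD2 KD label (adjusted p = 0.000321), and Cd3e, of the T cell receptor complex, by 1.07 ± 0.24 with the WT label (adjusted p = 0.00142). The summed level of the 17 genes, as log2, was 10.22 to 10.79 in SETD2 KD VE822, 9.84 to 10.74 in WT VE822, 9.46 to 9.74 in SETD2 KD untreated and 9.30 to 9.75 in WT untreated libraries. Of 35 NK receptor genes in the table, 4 were listed at 0 in all 24 libraries, Klra4, Klra6 and Klra8, of a lectin-like receptor family whose gene content differs between mouse strains, and Klrb1. Klre1, another lectin-like receptor of NK cells, had mean rlogs of 0.77 in SETD2 KD VE822 and 0.63 in SETD2 KD untreated libraries. The part that T cells or NK cells have in the values of the 10 genes was not tested.

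**Figure D5:**
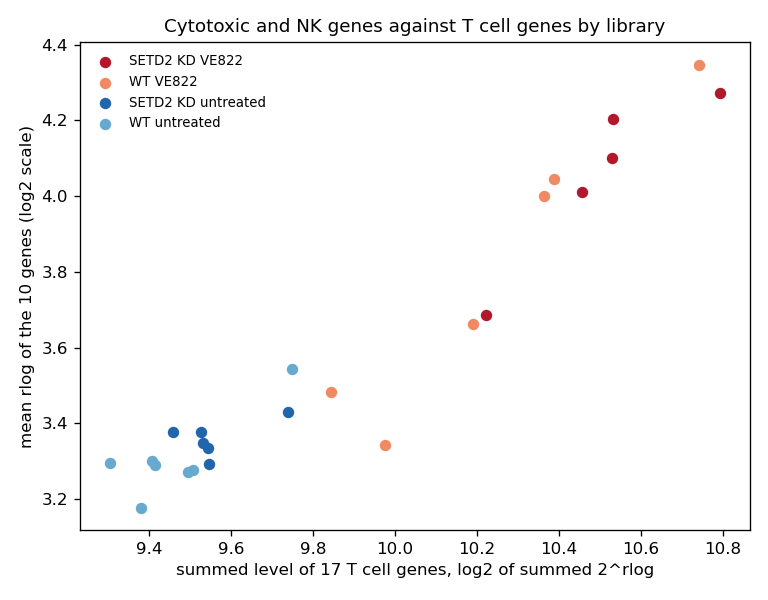
Each point is a library. The y axis is the mean rlog of the 10 genes and the x axis is the summed level of 17 T cell genes, as log2, coloured by group. The untreated libraries sit at the lower left (3.18 to 3.54 on the y axis), WT VE822 libraries run from among them to the upper right, and SETD2 KD VE822 libraries lie from 3.69 to 4.27.

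Markers of other cell types were counted in the same way, against the same shares of all tested rows, and their part in the values of the 10 genes was not tested. Of 10 dendritic cell genes 7 rose with each label, and 3 did so with the WT label without the libraries high in muscle transcripts, where the median difference was 0.53, against 0.55 with all libraries. Of 10 macrophage genes 0 rose and 3 fell with the SETD2 KD label and 1 rose and 3 fell with the WT label (0 rose and 3 fell without those libraries). Of 8 fibroblast genes 0 changed with the SETD2 KD label and 5 rose with the WT label, and 0 did so without those libraries, where the median difference was 0.49, against 1.12. Tpsab1, a mast cell protease, rose by 3.03 ± 0.46 with the SETD2 KD label (limma adjusted p = 5.55e-05) and by 3.20 ± 0.43 with the WT label (adjusted p = 5.39e-06). Cd163, a scavenger receptor of macrophages, fell by 1.04 ± 0.22 with the SETD2 KD label (adjusted p = 0.00159) and by 0.84 ± 0.20 with the WT label (adjusted p = 0.00272). Of 4 mast cell and basophil genes 2 rose with each label, and 1 with the WT label without those libraries. Of 5 B cell genes 1 rose and 1 fell with the SETD2 KD label, and 2 rose with the WT label. Without those libraries 1 rose and 0 fell with the SETD2 KD label, and 0 changed with the WT label. Of 7 neutrophil genes 1 rose with the SETD2 KD label (0 without those libraries) and 0 changed with the WT label, and of 7 muscle genes 0 changed with the SETD2 KD label and 1 rose with the WT label. Endothelium (7 genes) and adipocytes (6 genes) each had 1 gene that rose with each label, and such single genes are near the share of all rows. Of 5 red blood cell genes 0 passed with either label, and 4 rose with the SETD2 KD label without those libraries. The list of gamma delta and innate lymphoid cells (3 genes) had 0 calls, and 0 keratinocyte genes were high enough to test.

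The wider NK and cytotoxic pathway was followed in further lists, counted over the rows with a mean rlog of at least 3, in which 10.6% of all tested rows were higher and 11.6% lower with the SETD2 KD label and 17.2% higher and 17.5% lower with the WT label. A gene near that minimum can reach it only through its VE822 libraries, as Ncr1 did. The counts of these lists and of the cell type lists above are therefore a description only. Among 12 genes of granules and granule release, 5 rose and 1 fell with the SETD2 KD label, and 3 rose and 1 fell with the WT label, with median differences of 0.19 (SETD2 KD) and 0.12 (WT). Ctsc, the protease that activates granzymes, rose by 0.81 ± 0.17 (limma adjusted p = 0.00162) with the SETD2 KD label, and Ctsw, a cathepsin of cytotoxic lymphocytes, by 0.70 ± 0.18 (adjusted p = 0.00714). With the WT label Ctsc differed by 0.27 (adjusted p = 0.190) and Ctsw by 0.37 (adjusted p = 0.0904), and neither passed. Tnfsf10, the death ligand TRAIL, rose by 0.72 ± 0.20 with the SETD2 KD label (adjusted p = 0.0103) and by 0.53 ± 0.18 with the WT label (adjusted p = 0.0266). Rab27a, a GTPase that docks granules, fell by 0.66 ± 0.10 with the SETD2 KD label (adjusted p = 5.78e-05) and by 0.48 ± 0.09 with the WT label (adjusted p = 0.000357). Without the libraries high in muscle transcripts 0 rose and 1 fell with the WT label, with the median again 0.12, and the WT difference of Tnfsf10 was 0.41 (adjusted p = 0.194). Group mean rlogs were 11.60 to 12.41 for Ctsc and 7.28 to 7.93 for Rab27a, against 2.06 to 5.86 for the 10 genes. Which cells of the bulk tumour hold Ctsc and Rab27a was not tested, so their changes are not read as changes in cytotoxic lymphocytes.

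Among 15 other NK receptors and adaptors, 7 rose with the SETD2 KD label and 9 with the WT label, and 0 fell with either. Cd96, counted as higher with both labels, was near the minimum of 3 when untreated. Its mean rlog was 2.94 in WT untreated and 3.01 in SETD2 KD untreated libraries. Their median differences were 0.28 (SETD2 KD) and 0.27 (WT). Klra2, a receptor of the Ly49 family, rose by 1.17 ± 0.17 with the SETD2 KD label (limma adjusted p = 4.35e-05) and by 0.68 ± 0.16 with the WT label (adjusted p = 0.00198). Klrb1b, a relative of Klrb1c, rose by 0.85 ± 0.21 with the SETD2 KD label (adjusted p = 0.00468) and by 0.90 ± 0.19 with the WT label (adjusted p = 0.000889). Slamf7, a receptor of NK cells and activated lymphocytes, rose by 0.76 ± 0.17 with the SETD2 KD label (adjusted p = 0.00219) and by 0.54 ± 0.15 with the WT label (adjusted p = 0.00965). Without the libraries high in muscle transcripts 4 rose with the WT label, with a median of 0.25, and Slamf7 did not pass (0.51, adjusted p = 0.0785). A further 16 genes of this list varied but had a mean rlog under 3.

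Genes for ligands of these receptors went in both directions. Of 12 ligand genes, 5 rose and 3 fell with the SETD2 KD label (10.6% and 11.6% of all tested rows). With the WT label 3 rose and 4 fell (17.2% and 17.5% of all tested rows). With chromosome medians removed 5 rose and 1 fell with the SETD2 KD label, and 3 rose and 3 fell with the WT label. Without the libraries high in muscle transcripts 5 rose and 2 fell with the SETD2 KD label. Ligands of Klrk1 were among those that fell. Ulbp1 fell by 0.58 ± 0.09 with the SETD2 KD label (limma adjusted p = 5.61e-05) and by 0.58 ± 0.08 with the WT label (adjusted p = 8.86e-06). Raet1d fell by 0.51 ± 0.16 with the SETD2 KD label (adjusted p = 0.0210) and by 0.85 ± 0.15 with the WT label (adjusted p = 9.72e-05). These genes lie on chromosome 10. With chromosome medians removed Ulbp1 fell by 0.39 with the SETD2 KD label and by 0.32 with the WT label, and Raet1d no longer passed with the SETD2 KD label (adjusted p = 0.0863). Clec2g, a lectin of the family that Klrb1 receptors bind, rose by 0.96 ± 0.27 (adjusted p = 0.0117) with the SETD2 KD label and by 1.81 ± 0.25 (adjusted p = 7.57e-06) with the WT label.

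Of 18 transcription factors of NK and cytotoxic lymphocytes, 7 rose and 3 fell with the SETD2 KD label and 8 rose and 3 fell with the WT label. Tbx21 is counted as higher with both labels, although its mean rlog of 2.98 in both untreated groups was under the minimum of 3. Ikzf3, which encodes the lymphocyte factor Aiolos, rose by 0.88 ± 0.21 with the SETD2 KD label (limma adjusted p = 0.00339) and by 0.71 ± 0.19 with the WT label (adjusted p = 0.00553). Tox, a factor of NK cell development and exhausted T cells, rose by 0.78 ± 0.21 with the SETD2 KD label (adjusted p = 0.00805) and by 0.65 ± 0.19 with the WT label (adjusted p = 0.00978). Runx3, a RUNX factor of CD8 T cells and NK cells, rose by 0.47 ± 0.13 with the SETD2 KD label (adjusted p = 0.00828) and by 0.48 ± 0.12 with the WT label (adjusted p = 0.00250). The 3 that fell were the same with both labels. Gata3 fell by 0.27 (SETD2 KD, adjusted p = 0.00802) and 0.47 (WT, adjusted p = 1.2e-05). Klf2 fell by 0.35 (adjusted p = 0.00283) and 0.42 (adjusted p = 0.000146), and Ets1 by 0.28 (adjusted p = 0.0470) and 0.35 (adjusted p = 0.00456). Runx3 and these 3 had group mean rlogs of 8.94 to 11.59, above the 10 genes, and which cells hold them was not tested. Without the libraries high in muscle transcripts the WT count was 3 up and 3 down, with a median of 0.19, against 0.18, and neither Ikzf3 (0.68, adjusted p = 0.0594) nor Runx3 (0.33, adjusted p = 0.110) passed. Of 24 cytokine, chemokine and receptor genes, 8 rose and 1 fell with the SETD2 KD label and 10 rose and 1 fell with the WT label. Without those libraries 7 rose and 2 fell with the WT label, with a median of 0.20, against 0.26. Il2rb, the receptor chain shared by interleukin-2 and interleukin-15, rose by 1.32 ± 0.28 with the SETD2 KD label (adjusted p = 0.00171) and by 1.13 ± 0.26 with the WT label (adjusted p = 0.00175). Cxcr6, a chemokine receptor of tissue-resident T and NK cells, rose by 1.09 ± 0.20 with the SETD2 KD label (adjusted p = 0.000375).

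Of 31 genes for the interferon-gamma receptor and its targets, 20 rose and 2 fell with the SETD2 KD label and 12 rose and 2 fell with the WT label, with median differences of 0.72 (SETD2 KD) and 0.36 (WT). Cxcl9, a chemokine that draws CXCR3-bearing lymphocytes, rose by 2.90 ± 0.52 with the SETD2 KD label (limma adjusted p = 0.000323) and by 2.57 ± 0.48 with the WT label (adjusted p = 0.000239). Gbp4, an interferon-induced GTPase, rose by 2.20 ± 0.37 with the SETD2 KD label (adjusted p = 0.000147) and by 1.84 ± 0.34 with the WT label (adjusted p = 0.000189). The 2 genes that fell, the same with both labels, encode a chain of the receptor, Ifngr1, and its kinase, Jak1. Ifngr1 fell by 0.47 with the SETD2 KD label and by 0.53 with the WT label, and Jak1 by 0.32 with the SETD2 KD label and by 0.35 with the WT label. Ifngr1 lies on chromosome 10, with its median differences of -0.19 (SETD2 KD) and -0.26 (WT). Without the libraries high in muscle transcripts the WT count was 3 up and 2 down, with a median of 0.37, against 0.36. The difference between the labels was tested as an interaction and 0 of these 31 genes passed.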

How the data were processed

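RNA sequencing of 24 Renca tumour libraries was analysed. Per the submitters' processing notes the build was GRCm38 and the tools were FastQC, TopHat, HTSeq and DESeq2. Versions, annotation and strand setting were not given in the sources used here. The values were deposited by the authors as rlog values on the log2 scale, with 1 row per Ensembl gene, and were used with no further logarithm. Depth is unknown, since counts were not used here. Symbols, coordinates (GRCm38) and exon lengths come from GENCODE vM21, which matched 98.2% of rows (849 did not match). Groups were taken from the labels, and replicate numbers were given in accession order.

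Of 46078 rows, 16906 were 0 throughout. The rows whose mean rlog over 24 libraries reached 3 were fitted with limma 3.58.1 in R 4.3.3, with 4 group means over 24 libraries, empirical Bayes with a trend and Benjamini-Hochberg adjustment over 15916 rows, at a threshold of 0.05. Single genes were also compared with exact two-sided permutation tests (scipy 1.17.1). The length-adjusted rlog is rlog minus log2 of exonic kilobases. The fit was tested on simulated data. The 10 genes and the 19 further lists were chosen with earlier results of these data known. From each NK, cytotoxic or interferon-gamma list up to 4 called genes of largest difference could be named per comparison, and from other lists up to 2. Cd96, Ifngr1, Jak1, Klra4, Klra6, Klra8, Klrb1, Klre1 and, among the transcription factors, Ets1, Gata3, Klf2 and Tbx21 fall outside that rule and were named after their values were seen. Alternatives were no filter, a minimum of 5, no trend, only the groups compared, quantile normalisation, chromosome medians removed, library weights, the permutation test and each library left out. Chromosome medians were taken over genes with a mean rlog of at least 8. Leaving out the 4 libraries high in muscle transcripts was chosen after seeing the data.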

Additional observations from a re-analysis of the deposited data

Results flagged for a closer look

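Of 40 sets of libraries (10 genes in 4 groups), 5 held a library that stood apart from the rest by Dixon's criterion, where chance gives about 1 in 20, or 2 of 40. All 5 were the highest library of an untreated group. Nkg7 was 4.78 in WT untreated replicate 1, next to 4.19 in the library below it. Klrd1 was 3.36 in the same library, next to 3.11, and Ifng was 2.18 there, next to 2.05. WT untreated replicate 1 also had the highest summed T cell level of its group, 9.75 on the log2 scale, and its mean over the 10 genes was 3.54, against 3.18 to 3.30 in the other 6 libraries of the group. Prf1 was 3.52 in SETD2 KD untreated replicate 5, next to 3.39. Klrk1 was 5.26 in SETD2 KD untreated replicate 6, next to 4.91, and that library had the highest summed T cell level of its group, 9.74.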

How the results depend on the processing

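No alternative reversed the direction of any called gene. In WT VE822 against WT untreated libraries, 7 of 8 tested genes passed. The 8 include Ncr1, which reached the minimum mean rlog only because of the VE822 libraries. The counts given here for either label are therefore a description only. The count was 4 with quantile normalisation, 2 without the 4 libraries high in muscle transcripts (median difference over the 8 genes 0.45, against 0.50), and 1 with a minimum mean rlog of 5, which left 1 gene, Klrk1, to test. With each library left out in turn it ran from 4 (without WT VE822 replicate 5) to 8, with 5 without WT VE822 replicate 4. With the SETD2 KD label 8 of 8 passed, 1 of 1 with the minimum of 5, and 7 to 8 with a library left out. In SETD2 KD untreated against WT untreated libraries the count was 0, and 1 by the unadjusted exact permutation test, for which no share of all rows is given. The counts between labels under VE822 and for the interaction were 0 in every alternative run. The causes of these changes were not tested, apart from the smaller number of genes and libraries where an alternative removes them. Over all tested rows, 5530 passed in the WT comparison and 3418 without the 4 libraries. Those that passed as higher numbered 2737 of 15916, 2422 with quantile normalisation and 1637 without the 4 libraries. They numbered 2148 of 13076 with the minimum of 5, 2552 without WT VE822 replicate 5 and 2374 without replicate 4. With chromosome medians removed, 61.5% of calls were higher, against 49.5%, in the WT comparison, and 60.4% against 47.7% in the SETD2 KD comparison. Between labels under VE822 the calls over all tested rows numbered 2, and 46 without WT VE822 replicate 3. No paired analysis was possible because replicate numbers were given in accession order and pair nothing. How depth limits single genes is unknown.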
